A study of Mus musculus with 12 samples.

Results

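Testes of 10-day-old mice were set apart by the level of Cyp17a1, the steroid 17-alpha-hydroxylase and 17,20-lyase of Leydig cells, which commits steroids to androgen synthesis. The arrays were chosen by the level of the Cyp17a1 probe in the authors' processed values, on the log2 scale: 4 of 12 arrays lay below a threshold, and these 4 are described here against the other 8, with genotype set aside. The 4 low arrays were KO 1 (9.97), KO 3 (10.27), HET 5 (9.52) and WT 11 (9.78). The level just inside the threshold was 10.27 in KO 3, and the level just outside it was 11.31 in KO 2. Since a measured level chose the arrays, every low minus other difference below is a description and was not tested.

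KO stands for SC-RbKO, mice with Cre recombinase under the anti-Müllerian hormone (AMH) promoter, which is active in Sertoli cells, and both copies of Rb1, the retinoblastoma gene, deleted. HET stands for SC-Rb+/-, with deletion of a single copy by the same driver, and WT for wild type. Which alleles the WT mice carried was not stated. RNA came from whole testis, so all cell types contribute. Nothing in the labels says that each RNA was a separate animal, so the spread behind each p-value may be technical. The series held 4 KO, 3 HET and 5 WT arrays, of which 2 KO, 1 HET and 1 WT were low. The arrays were Illumina MouseWG-6 v2 BeadChips, and levels below are log2 normalized intensities, which cannot be compared between genes.

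Leydig cells lie between the seminiferous tubules and make androgens from cholesterol. Star moves cholesterol into mitochondria, Cyp11a1 cuts its side chain to give pregnenolone, and Cyp17a1 acts on the products. Luteinizing hormone drives this pathway through cyclic AMP, and the nuclear receptor NR5A1 binds the promoters of its genes. In the mouse, fetal Leydig cells decline after birth while an adult population arises. In bulk RNA, fewer Leydig cells and less RNA per Leydig cell cannot be told apart.

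Depth overlapped between the sides of the split. Of 45281 probes the low arrays detected 41.4 to 42.2 percent and the others 39.3 to 43.7 percent, with median unnormalized intensities of 56.3 to 60.2 on the low arrays and 52.2 to 58.6 on the others. After a filter on dim probes 11076 genes remained. Among the other arrays, 3 stood apart in a germ cell gene: Ldhc, a lactate dehydrogenase of spermatocytes, read 5.25 in HET 6, 11.51 in HET 7 and 10.55 in WT 12, against 7.18 to 7.42 on the low arrays. The targeted gene Rb1 read 9.26 in KO 1, 8.74 in KO 3, 8.78 in HET 5 and 8.83 in WT 11, and 8.61 to 9.31 on the other 8. Those ranges overlap. The deletion was limited to Sertoli cells and the probe's place relative to it was not analysed here, so Rb1 does not check the labels.

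Few genes were separated by the split. Of 11076 genes 45.4 percent were lower and 54.6 percent higher on the low arrays by any amount, and 0.749 percent differed by at least 0.5 on the log2 scale. The levels of the 4 low arrays and the other 8 did not overlap for 28 of 11076 genes (0.253 percent), 13 of them lower (0.117 percent) and 15 higher (0.135 percent) on the low arrays. With a difference of at least 0.5 besides, 6 genes were lower (0.0542 percent) and 3 were higher (0.0271 percent). The 6 lower genes were Cyp17a1, Aqp2, Mrap, Star, Tpsab1 and Cma2, and the 3 higher genes were Foxq1, Gchfr and Mybphl. Cyp17a1 is in this count because it chose the arrays. Mrap and Star were named as markers of the split beforehand, with earlier results of these data known. Star, Tpsab1 and Cma2 were detected on 0 of 4 low arrays and were kept through the arrays where they were high, so their place in this count rests on levels not above background. With the authors' values, without background correction or with an offset of 50, only 1 gene was higher, Foxq1. The higher count was 11 without KO 1, 7 without KO 3 and 5 without WT 10, and the lower count was 9 without KO 1, WT 11, KO 2 or WT 12. Each genotype held arrays of both sides, as did the lower 6 and the upper 6 of the numbers in the deposited column names, whose meaning was not stated. A gene without overlap therefore has the same sign within each of them by construction.

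The promoter of Aqp2 is shown because this gene had the largest difference after Cyp17a1 among the genes without overlap and is transcribed through cyclic AMP in kidney collecting duct. The choice was made after its values were seen. The RefSeq table used here (GRCm38.p6) held windows for 3 of the 9 genes, Aqp2, Gchfr and Mybphl, and none for Cyp17a1, Star or Mrap. The window below is chr15:99578806-99579055, on the plus strand, the 250 bases before the annotated start. Capitals mark the motif CGTCA, a part of the cyclic AMP response element, whose first base lies 211 bases before the start.

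Aqp2 upstream: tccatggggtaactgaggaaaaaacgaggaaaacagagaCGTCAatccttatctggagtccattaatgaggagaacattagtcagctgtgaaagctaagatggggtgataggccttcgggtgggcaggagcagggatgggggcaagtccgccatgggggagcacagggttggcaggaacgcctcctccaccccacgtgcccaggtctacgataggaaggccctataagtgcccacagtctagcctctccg

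CGTCA was searched on both strands (TGACG on the reverse) and occurred in 17.8 percent of 32851 such windows. Of the 3 windows of the separated genes 1 held it, that of Aqp2. Its part in the level of Aqp2 was not tested. The NR5A1 motif AAGGTCA (reverse TGACCTT) occurred in 4.08 percent of all windows and in 0 of the 3 windows of the separated genes.

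Cyp17a1 itself read 9.92 in KO 1, 10.23 in KO 3, 9.46 in HET 5 and 9.72 in WT 11 after background correction. On the other 8 arrays its lowest level was 11.29, its median 11.86 and its highest 12.64. The means were 9.83 ± 0.33 (SD, n = 4) on the low arrays and 11.91 ± 0.43 (SD, n = 8) on the others, a difference of -2.08, or 4.23-fold. Within KO the difference was -1.67, within HET -2.62 and within WT -2.20. These values follow from how the arrays were chosen.

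Mrap, which encodes an accessory protein that carries the ACTH receptor MC2R to the cell surface, read 6.02 in KO 1, 5.61 in KO 3, 5.75 in HET 5 and 5.60 in WT 11. Its lowest, median and highest levels on the other arrays were 6.05, 7.35 and 7.94. The lowest of these was KO 2, which lay only just above KO 1, and the remaining 7 arrays read at least 6.98. The means were 5.75 ± 0.20 on the low arrays and 7.24 ± 0.56 on the others, a difference of -1.50. Mc2r had a probe that was not detected on enough arrays to be kept.

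Star read 4.66 in KO 1, 4.72 in KO 3, 4.57 in HET 5 and 4.59 in WT 11, not above background on any of them. On the other arrays it read 5.05 to 6.52 with a median of 5.79, and was detected on 7 of 8, the exception being KO 2 at 5.05. Against the lowest level detected on each array, Star was at least 1.6-fold lower on the low arrays. The measured means were 4.63 ± 0.07 on the low arrays and 5.80 ± 0.45 on the others. Such bounds take, on each low array, the higher of the lowest detected level and the gene's own level. They hold only for the background correction with an offset of 16 used here. With an offset of 50 the measured difference of Star was -0.63.

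**Figure D1:**
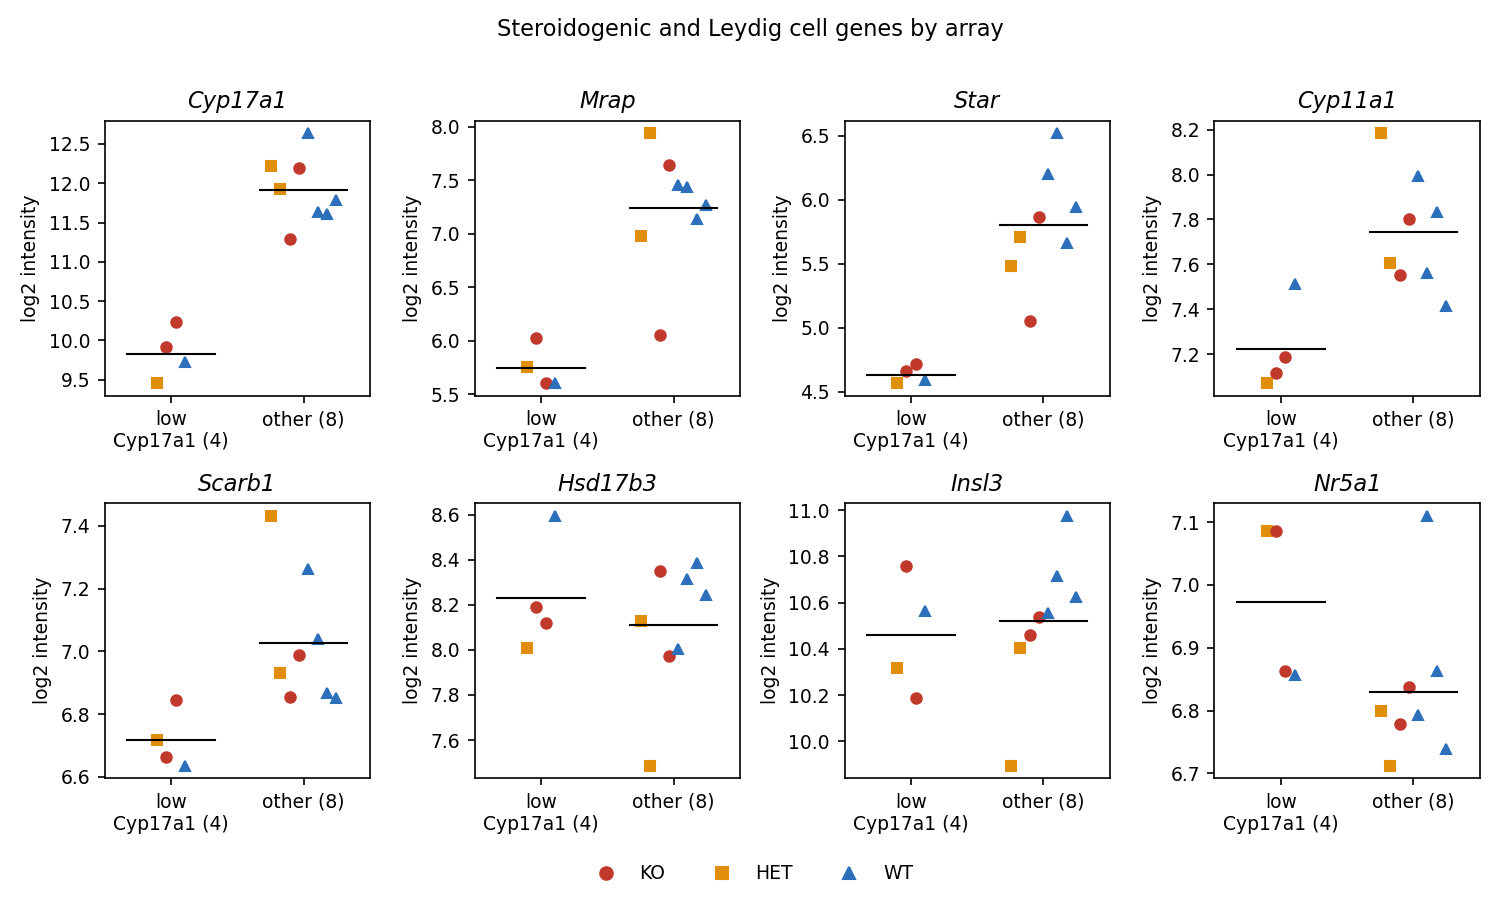
Log2 normalized intensity (vertical axes, a scale of its own for each gene) of 8 genes of Leydig cells and steroid synthesis, with the 4 low Cyp17a1 arrays left of the other 8. Points are arrays, marked by genotype, and lines are group means. The sides are separate for Cyp17a1, Mrap, Star and Scarb1, overlap by 1 low array for Cyp11a1 (WT 11 at 7.51), and overlap broadly for Hsd17b3, Insl3 and Nr5a1.

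Further steps of the pathway differed less. Cyp11a1 read 7.12 in KO 1, 7.19 in KO 3, 7.07 in HET 5 and 7.51 in WT 11, against 7.41 to 8.18 on the other arrays (median 7.70). WT 11 lay above WT 12 (7.41), so the sides overlapped, with a difference of -0.52. A dimmer probe of Cyp11a1 differed by -0.23. Scarb1, the receptor that takes up cholesterol from high-density lipoprotein, read 6.66 in KO 1, 6.85 in KO 3, 6.72 in HET 5 and 6.64 in WT 11. It read 6.85 to 7.43 on the others, so the sides touched at 6.85 when rounded. The difference of Scarb1 was -0.31 on this probe and -0.02 on a dimmer one.

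The remaining detected members of the steroid synthesis list were level or slightly higher on the low arrays. Hsd17b3, which turns androstenedione into testosterone, read 8.01 to 8.60 on the low arrays and 7.49 to 8.38 on the others. Cyb5a, a cofactor of the lyase reaction of CYP17A1, averaged 11.56 ± 0.10 on the low arrays and 11.47 ± 0.29 on the others. Tspo, an outer mitochondrial membrane protein, averaged 9.89 ± 0.11 on the low arrays and 9.80 ± 0.32 on the others. Of 14 genes on the list 11 had a named probe and 6 were detected, 3 of them lower and 3 higher, with a median difference of -0.22 against 0.01 over all genes. The median of steroid synthesis was -0.0256 without the filter on dim probes and turned to 0.084 with a strict filter, over other sets of genes. The 3 lower members were Cyp17a1, Star and Cyp11a1, and the first of these chose the arrays. Of the rest, Star (-1.17, not above background on the low arrays) and Cyp11a1 (-0.52) were lower. Tspo (0.084), Cyb5a (0.10) and Hsd17b3 (0.12) were higher. Without Cyp17a1 the middle value was that of Tspo, so the sign of the list median rests on the gene that chose the arrays.

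Most detected members of the list of Leydig cell regulators and hormones overlapped between the sides. In whole testis RNA other cell types may contribute to their levels. Insl3, the peptide hormone of Leydig cells that draws the testis downward, read 10.76 in KO 1, 10.19 in KO 3, 10.32 in HET 5 and 10.57 in WT 11, and 9.90 to 10.98 on the other arrays (difference -0.06). Nr5a1 averaged 6.97 ± 0.13 on the low arrays and 6.83 ± 0.12 on the others. Of the 10 detected Leydig cell regulators and hormones, Mrap, a marker of the split named beforehand, was the only member without overlap. Over all genes 0.253 percent were without overlap. The other 9 differed by between -0.06 (Insl3) and 0.24 (Thbs2, a matrix protein found in fetal Leydig cells). Among these, the transcription factor genes Gata4, Gata6, Nr2f2 and Tcf21 differed by 0.13, 0.23, 0.05 and 0.20. Pdgfra, a receptor on Leydig precursors, differed by -0.03 and Crhr1, detected on 3 of 12 arrays, by 0.03.

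Of 8 adult Leydig cell markers 3 were detected. Hsd11b1, which interconverts active and inactive glucocorticoid, averaged 7.16 ± 0.22 on the low arrays and 7.00 ± 0.11 on the others. Vcam1, an adhesion molecule, averaged 10.57 ± 0.12 on the low arrays and 10.35 ± 0.29 on the others. Ptgds, a prostaglandin D synthase, averaged 5.39 ± 0.39 on the low arrays and 5.46 ± 0.26 on the others. None of these separated the sides.

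Aqp2, the vasopressin-regulated water channel known from kidney collecting duct, read 4.97 in KO 1, 5.51 in KO 3, 4.91 in HET 5 and 5.59 in WT 11. It was not above background in KO 1 and HET 5. The other arrays read 6.46 to 7.52 with a median of 7.14, above every low array. The means were 5.25 ± 0.35 on the low arrays and 7.06 ± 0.39 on the others, a measured difference of -1.82. Within WT, where the low array detected Aqp2, it was -1.52. Within KO (-1.86) and HET (-2.02) it rests on KO 1 and HET 5, where the level was not above background. A second probe read 4.95 to 5.64 on the low arrays and 5.93 to 6.69 on the others, a difference of -0.92.

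Tpsab1 and Cma2, which encode a tryptase and a chymase of mast cells, were the other members of the lower set. Tpsab1 read 4.96 in KO 1, 4.95 in KO 3, 4.88 in HET 5 and 4.77 in WT 11, not above background on any, and 5.20 to 6.49 on the other arrays, detected on all 8. With the offset of 16 Tpsab1 was at least 1.76-fold lower on the low arrays, and with an offset of 50 its measured difference was -0.60. Cma2 read 4.58 to 4.70 on the low arrays, again not above background, and 4.96 to 6.35 on the others, where 7 of 8 detected it, and was at least 1.33-fold lower, a bound that falls short of the minimum difference of 0.5 on the log2 scale. Both were brightest in HET 6 (6.49 and 6.06) and KO 2 (6.38 and 6.35), and KO 2 had the lowest Cyp17a1 of the other arrays. Further genes used by mast cells, chosen after these values were seen, overlapped: the histamine-forming enzyme gene Hdc differed by -0.21, Gata2 by -0.12, the IgE receptor gene Fcer1a by -0.10 and Kit by 0.02. Kit is also expressed by germ cells. Hdc, Gata2 and Kit were detected on 4 of 4 low arrays. Fcer1a was dim, detected on 2 of 4 low and 6 of 8 other arrays. Other mast cell genes are not reported here. The part of mast cells in these differences was not tested.

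The higher set began with Foxq1, a forkhead transcription factor. Foxq1 read 10.54 in KO 1, 10.44 in KO 3, 10.43 in HET 5 and 10.39 in WT 11, a narrow band, against 9.10 to 10.26 on the other arrays (median 9.79). The means were 10.45 ± 0.06 on the low arrays and 9.78 ± 0.36 on the others, a difference of 0.67 that was 0.49 within KO, 0.74 within HET and 0.67 within WT. Gchfr, whose product governs feedback on tetrahydrobiopterin synthesis, read 5.73 to 5.81 on the low arrays and 4.72 to 5.54 on the others, where 4 of 8 detected it. Its difference was 0.63, but a second probe differed by 0.14. Mybphl, a myosin-binding protein relative, read 6.37 to 6.76 on the low arrays and 5.30 to 6.30 on the others, a difference of 0.62, its lowest levels lying in HET 7, WT 12 and HET 6.

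**Figure D2:**
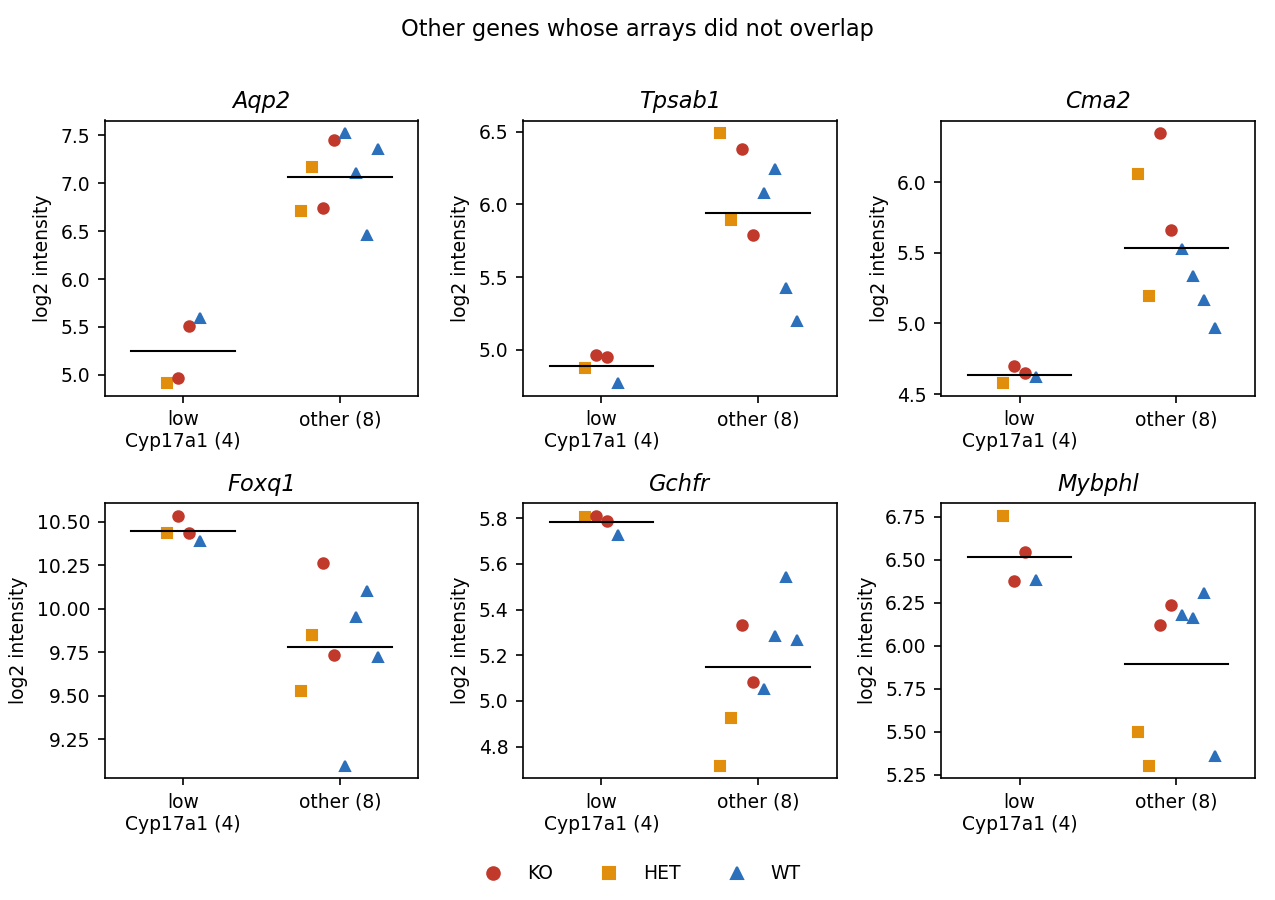
Log2 normalized intensity of the 6 remaining genes whose low and other arrays did not overlap and differed by at least 0.5, with low arrays left of the other 8. Points are arrays, marked by genotype, and lines are group means. The low arrays form a tight cluster for Foxq1 and Gchfr, and Tpsab1 and Cma2 vary widely among the other arrays.

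Differences were under 0.5 for the other genes without overlap. On the lower side were Errfi1, a feedback inhibitor of the EGF receptor (-0.37), Oga, which removes O-linked N-acetylglucosamine from proteins (-0.37), the co-chaperone gene Dnajc7 (-0.36), Gpbp1 (-0.26) and Cyrib (-0.24), along with Scarb1. On the higher side were Rasl11a (0.44), Robo4, an endothelial guidance receptor (0.42), Ddit4l, an inhibitor of mTOR signalling (0.38), and the semaphorin gene Sema7a (0.34). They were followed by Dnph1 (0.28), the hyaluronidase gene Hyal1 (0.27), Ubald2 (0.24), Pdik1l (0.22) and Rwdd2b (0.19). The remaining 4, outside the rule for named genes, were Shq1 (-0.14) on the lower side and Gm715 (0.28), Mtif3 (0.17) and H3f3a (0.13) on the higher side. Dimmer probes differed by -0.11 for Robo4, -0.17 for Hyal1 and 0.00 for Sema7a, while both probes agreed in sign and size for Rasl11a (0.44 and 0.39).

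**Figure D3:**
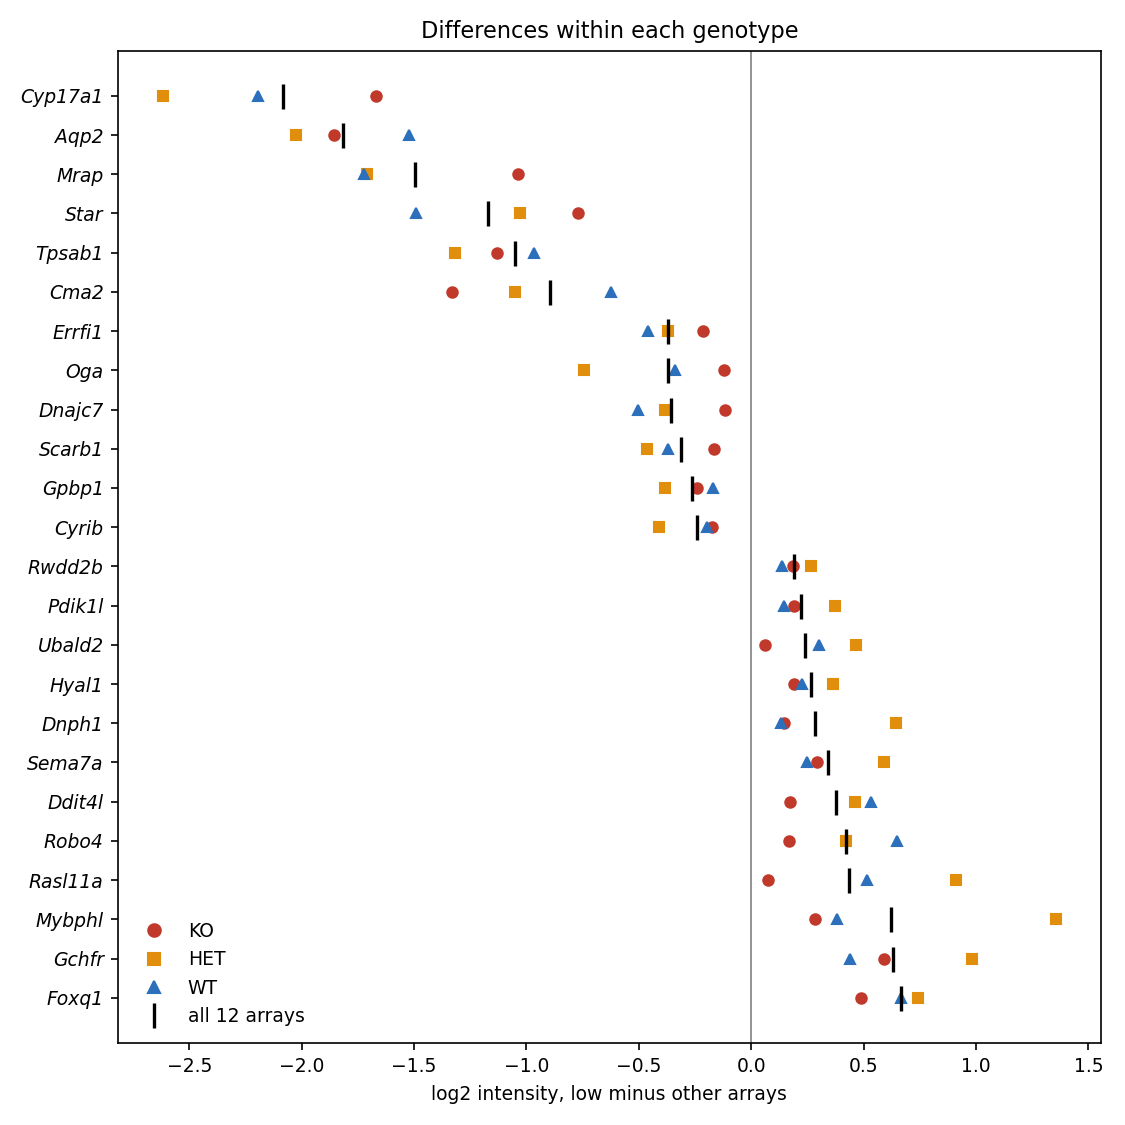
Low minus other difference in log2 normalized intensity (horizontal axis) for the 12 lower and 12 higher genes with the largest differences among those without overlap, within each genotype (symbols) and over all 12 arrays (black bars). Every symbol lies on the same side of 0 as its bar, as the choice of genes required, and Cyp17a1, Mrap and Star have their smallest difference within KO.

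The split left most gene groups level, each read against the median of 0.01 over all genes and the 0.253 percent of genes without overlap. In the cholesterol list, 20 of 28 genes were detected, 9 lower and 11 higher, with a median of 0.01. Scarb1 was its only member without overlap, and Sc5d, a late enzyme of cholesterol synthesis, had the next largest difference (-0.21). The cAMP signalling list had a median of -0.03 over 11 members, 7 of them lower. Within it Pde4b, a phosphodiesterase that degrades cyclic AMP, averaged 6.82 ± 0.35 on the low arrays and 7.46 ± 0.42 on the others, and Crem, a transcription factor gene induced by cyclic AMP, 5.82 ± 0.20 on the low arrays and 6.37 ± 0.55 on the others. On these probes the sides overlapped for both genes. A dimmer Crem probe, detected on 2 of 4 low arrays and 8 of 8 others, read 4.87 to 5.17 on the low arrays and 5.23 to 6.39 on the others, without overlap (-0.75). The other 2 Crem probes differed by -0.45 and -0.06, with overlap. The list mean relative to the other arrays was -0.18 to -0.10 on the low arrays and -0.11 to 0.13 on the others.

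Sertoli cell genes gave a median of 0.06 over 16 detected members, with Gdnf, the growth factor for spermatogonial stem cells, 0.33 higher and Amh 0.24 higher, both with overlap. The androgen-responsive Sertoli genes had a median of -0.12 over 6, with 4 lower and 2 higher, Tubb3 (0.08) and Cldn3 (0.06). Their list mean on the low arrays (-0.27 to -0.04) lay inside the range of the other arrays (-0.28 to 0.35). Drd4, a dopamine receptor gene, averaged 10.44 ± 0.18 on the low arrays and 11.13 ± 0.43 on the others. Gpd1, glycerol-3-phosphate dehydrogenase, averaged 6.43 ± 0.16 on the low arrays and 6.70 ± 0.30 on the others. Drd4 read 10.29 to 10.69 on the low arrays and 10.62 to 11.92 on the others, and WT 11 lay above WT 10 (10.62) and KO 2 (10.66). Drd4 was highest in HET 7 (11.92), WT 8 (11.46), HET 6 (11.28) and WT 12 (11.21).

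Meiotic prophase genes were lower for 14 of 16 detected members with a median of -0.13, but the list mean on the low arrays (-0.23 to -0.14) lay inside the range of the other arrays (-0.82 to 0.87). Without WT 12, HET 6 and HET 7 the median was -0.03. Ldhc differed by -0.68 and Piwil1, a piRNA-binding protein of spermatocytes, by -0.43. Spermatogonial genes differed by a median of 0.035 over 17 members, with Ddx4, a germ cell RNA helicase, at -0.27 and Dazl, a germ cell RNA-binding protein, at -0.24.

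Other cell types of the testis were near level as lists. Medians were 0.05 over 14 peritubular myoid genes, with Actg2 at 0.26 and Tpm2 at 0.23, and 0.06 over 16 endothelial genes, with Robo4 the only member without overlap and Plvap at 0.19. They were 0.04 over 15 macrophage and leukocyte genes, and 0.02 over 20 stromal genes, with Dlk1 at 0.19 and Thy1 at -0.22. Among macrophage genes Mrc1, the mannose receptor, differed by -0.19, and Fcer1g by -1.10, but Fcer1g read either 4.30 to 4.62 or 7.60 to 9.68 on single arrays of both sides, detected on 1 of 4 low and 4 of 8 other arrays. The immediate early and heat shock list had a median of 0.05 over 17, Junb differing by -0.65 and Jun by 0.42, and Junb was highest in WT 9 (9.42). The DNA replication and cell cycle list had a median of 0.00 over 16, with Ccne2 at -0.19 and Tyms at 0.15.

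Markers of neighbouring tissues were mostly below detection on both sides. Of the 3 adrenal cortex genes with a probe, none was kept: Cyp11b1 and Cyp21a1 were detected on 0 of 12 arrays, and Cyp11b2 on 1, an array of the other 8. Of 14 genes of epididymis, fat and striated muscle 2 were kept, Myl1 (-0.19) and Adipoq (0.05). The erythroid list had a median of 0.05 over 4, its array means ranging from -0.40 to 0.38 on the low arrays and -0.89 to 0.44 on the others, with Hba-a1 at 0.13 and Hbb-bt at 0.08.

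**Figure D4:**
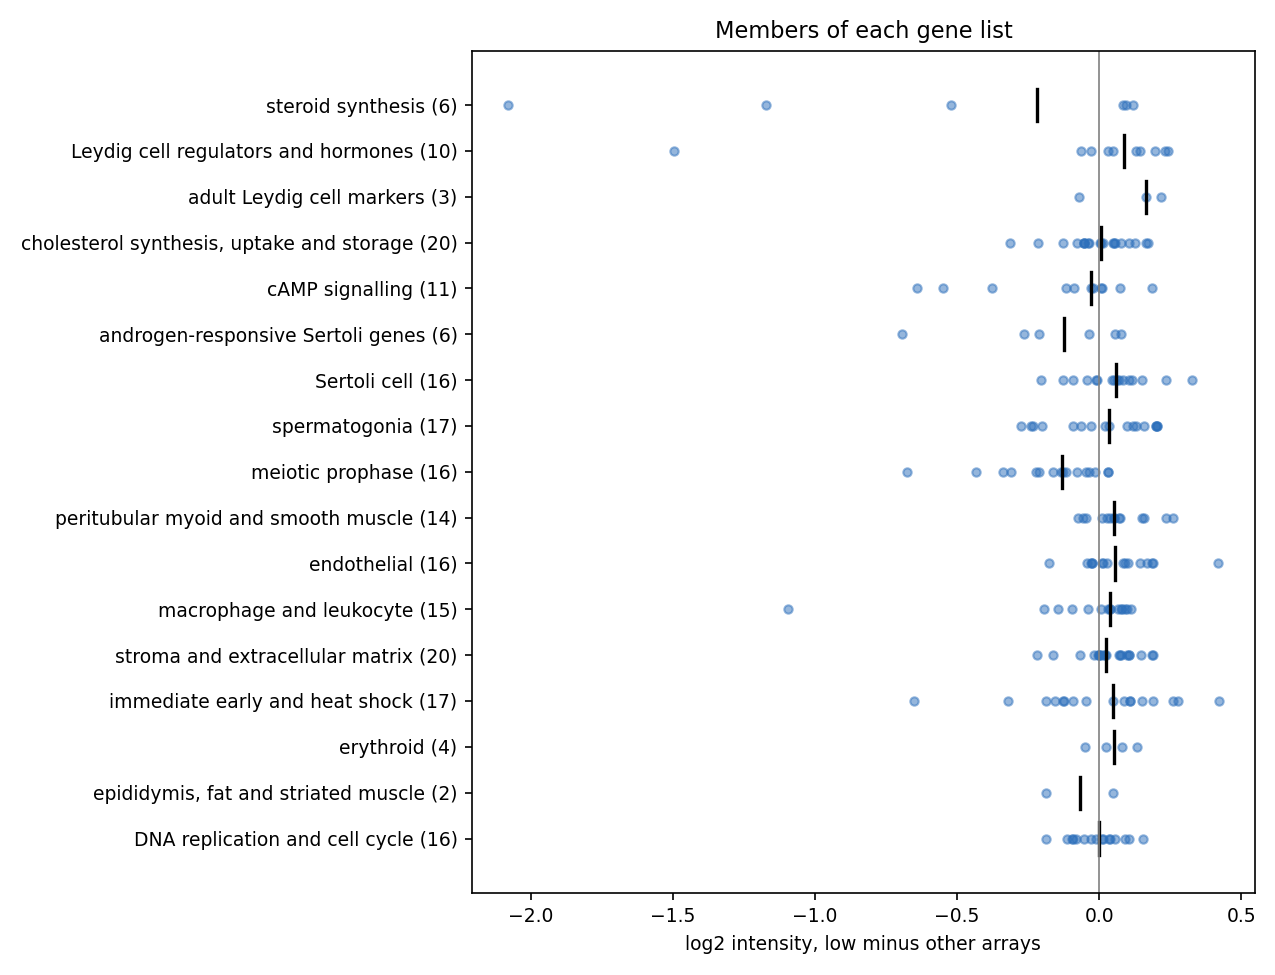
Low minus other difference in log2 normalized intensity (horizontal axis) of each detected member (points) of 17 gene lists, with the number of members in brackets and the list median as a black line. The steroid synthesis list has Cyp17a1 at -2.08, Star at a measured -1.17, Cyp11a1 at -0.52 and the other 3 near 0. Star was not above background on the low arrays and was at least 1.6-fold lower with the offset of 16. Every list median lies between -0.22 and 0.16.

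Genotype was the comparison of the study's own design, and none of these genes passed it. Cyp17a1 averaged 10.91 ± 1.04 in KO (n = 4), 11.20 ± 1.52 in HET (n = 3) and 11.48 ± 1.07 in WT (n = 5). The KO minus WT difference was -0.57 (SE 0.66, limma adjusted p = 1, unadjusted p = 0.404) and the HET minus WT difference was -0.28 (SE 0.72, limma adjusted p = 0.899). The SD within each genotype exceeded either difference, and each genotype held both low and other arrays. The HET difference turned to 0.59 without HET 5, and the KO difference was -1.01 without WT 11, -0.28 without WT 8 and -0.24 without KO 1. KO minus WT differences were -0.71 (SE 0.37) for Star, -0.65 (SE 0.51) for Mrap, -0.64 (SE 0.57) for Aqp2 and 0.39 (SE 0.25) for Foxq1, each with limma adjusted p = 1. In limma 0 of 11076 genes passed in KO against WT, where 283 (2.56 percent) had an unadjusted p under 0.05, and 0 in HET against WT, where 1083 (9.78 percent) did. Leaving out HET 5 leaves only HET 6 and HET 7 as HET arrays, which lay far apart for Ldhc (5.25 and 11.51). Without HET 5, 173 genes passed in HET against WT, and without WT 12, HET 6 and HET 7 together 2 genes passed in KO against WT.

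Covariation among the other 8 arrays was not used by the threshold and could be tested, but only for large slopes. On simulated data a regression over these arrays recovered 0 percent of genes given a slope of 0.5. It recovered 67 percent of genes given a slope of 1. Each gene was regressed on Cyp17a1 over these 8 arrays in limma, where 0 of 11075 genes passed after Benjamini-Hochberg adjustment and 287 (2.59 percent) had an unadjusted p under 0.05, 99 with a positive slope (0.894 percent) and 188 with a negative one (1.7 percent). Foxq1 had the smallest p, with a slope of -0.81 log2 units per log2 unit of Cyp17a1 (SE 0.13, limma unadjusted p = 0.00014, adjusted p = 0.995). Its highest level among these 8, 10.26, was in KO 2, which had the lowest Cyp17a1, and its lowest, 9.10, was in WT 8, which had the highest. Next by p were the peptide transporter gene Slc15a2 (-0.87), the LIM-domain gene Fhl2 (-0.51), the secreted glycoprotein gene Stc1 (-1.31) and the sulfotransferase gene Chst10 (0.62), each with limma adjusted p = 0.995. Slopes of the separated genes were 0.72 (SE 0.37) for Mrap, 0.53 (SE 0.26) for Aqp2 and 0.40 (SE 0.33) for Star. They were 0.09 (SE 0.36) for Tpsab1, -0.07 (SE 0.37) for Cma2, -0.40 (SE 0.18, limma unadjusted p = 0.0507) for Gchfr and -0.08 (SE 0.34) for Mybphl, each of these and the preceding 3 with limma adjusted p = 0.995.

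Exact two-sided permutation tests were run for 18 detected genes of the Leydig cell and steroid synthesis lists. After adjustment 0 correlated with Cyp17a1 over the other 8 arrays. Cyp11a1 had r = 0.66 (exact p = 0.073, adjusted p = 0.601) and rho = 0.64 (exact p = 0.0962, adjusted p = 0.433), and r = 0.58 without WT 8 and KO 2, the arrays farthest from the median. Mrap had r = 0.55 (exact p = 0.157, adjusted p = 0.601) and rho = 0.48 (exact p = 0.243, adjusted p = 0.729), with r = 0.08 without those arrays, so the relation rests on them. Star had r = 0.38 (exact p = 0.354, adjusted p = 0.695) and rho = 0.31 (exact p = 0.462, adjusted p = 0.743), and r = -0.52 without them. Cyp11a1, Mrap and Star were the only genes of the 18 with a positive r, and r was negative for all others. Hsd17b3 had r = -0.49 (exact p = 0.227, adjusted p = 0.601) and rho = -0.76 (exact p = 0.0368, adjusted p = 0.433), and r = -0.47 without WT 8 and KO 2. Gata6 had r = -0.53 (exact p = 0.18, adjusted p = 0.601) and rho = -0.71 (exact p = 0.0576, adjusted p = 0.433). Cyb5a had r = -0.41 (exact p = 0.2958, adjusted p = 0.6655) and rho = -0.64 (exact p = 0.0962, adjusted p = 0.433).

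**Figure D5:**
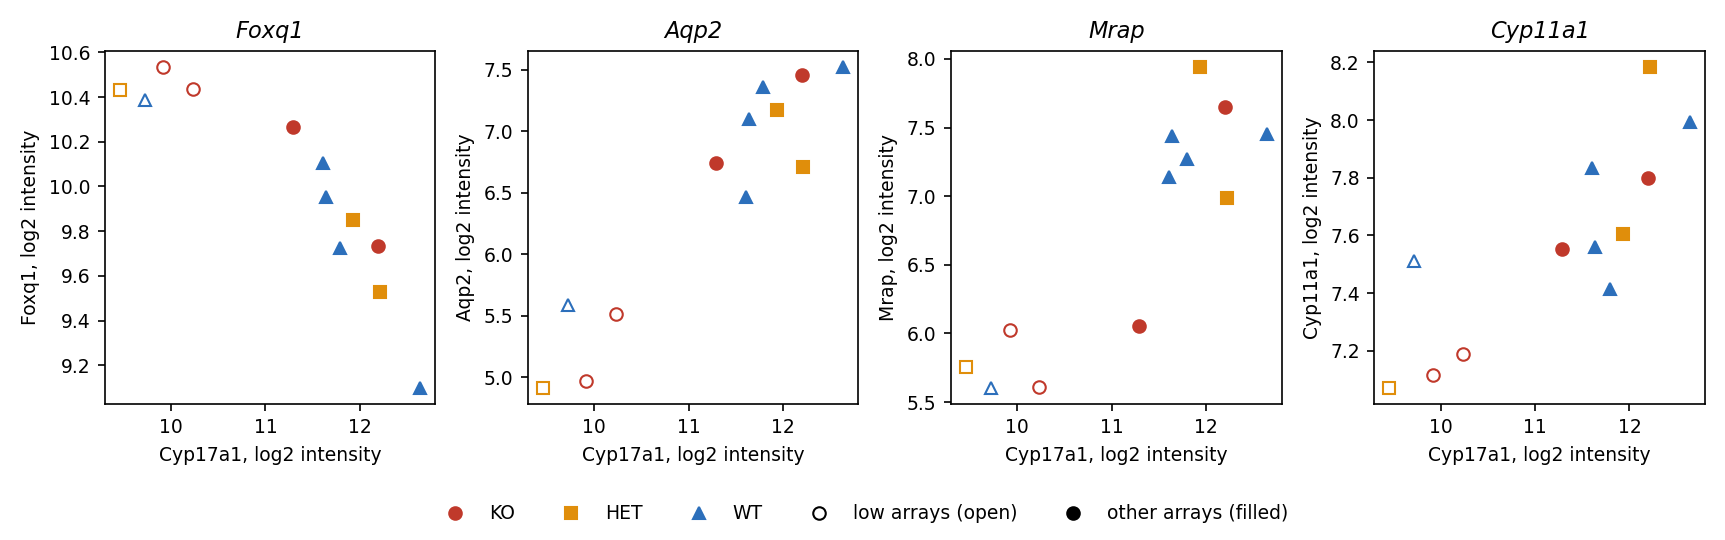
Log2 normalized intensity of Foxq1, Aqp2, Mrap and Cyp11a1 (vertical axes) against Cyp17a1 (horizontal axes) on 12 arrays, low arrays open and other arrays filled. Foxq1 is highest in KO 2 (10.26) and lowest in WT 8 (9.10) among the other 8 arrays, and Mrap in KO 2 (6.05) lies beside the low arrays.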

How the data were processed

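Per the file headers, the deposited unnormalized table gives 2 columns per array for 45281 probes: a mean intensity of the beads, which is linear, and a p-value of detection. The authors' processed values, deposited as linear intensity, differed from a quantile normalization of that table by at most 4.87e-08 percent. They gave the Cyp17a1 level that chose the arrays and were otherwise an alternative.

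In R 4.3.3 with limma 3.58.1, intensities were corrected by normexp from detection p-values with an offset of 16, then log2 transformed, then quantile normalized. A probe was kept where its detection p was under 0.05 on 3 or more arrays (20170 probes), and each gene took its brightest kept probe (11076 genes, 4174 with more than 1). Gene names came from the platform annotation: 34885 probes had 1 symbol, 18 several and 10378 none, and 34807 matched the gene table by Entrez identifier. Figures were drawn with Python 3.11.15 and matplotlib 3.10.9.

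A gene was separated when low and other arrays did not overlap, with a difference of at least 0.5 besides for the smaller set. This description carries no test. Genotypes were compared by a limma fit over all 12 arrays, and genes were regressed on Cyp17a1 over the other 8 arrays in limma, with Benjamini-Hochberg adjustment. Tested on simulated data over 11075 genes, the regression recovered 0, 67 and 96.8 percent of genes given slopes of 0.5, 1 and 2. The simulated noise was independent between genes and arrays, so it held no shifts shared by many genes on single arrays.

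The arrays, the 18 gene lists and the tests were chosen with earlier results of these data known. Named were Cyp17a1, Star, Mrap, the detected Leydig cell and steroid synthesis list members, the 12 lower and 12 higher separated genes with the largest differences (leaving out clone-style names), the 2 members of every other list with the largest difference, and the 5 smallest slope p-values. Alternatives changed the background correction, offset, normalization, filter, probe choice, size of difference, covariates and arrays used. The number of arrays limits the precision. The scanner software and genome build were not stated.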

Additional observations from a re-analysis of the deposited data

Results flagged for a closer look

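Single arrays lay far from the rest of their group (a gap large for the group's range by Dixon's criterion) in 23 of 280 groups examined, and chance flags about 1 in 20. That rate need not hold here, since many of these genes were named because of the split. Of these, 3 were among the low arrays: KO 1 was low for Gpbp1 (10.66) and high for Fcer1g (8.28), and KO 3 was low for Dlk1 (12.31). Among the other arrays, HET 6 was low for Tspo (9.13), Cyb5a (10.78), Dnph1 (6.94), Tpm2 (8.62) and Hba-a1 (12.15), HET 7 was low for Hsd17b3 (7.49), and WT 9 was high for Nr5a1 (7.11) and Junb (9.42).

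Within KO, KO 3 stood apart for Cyb5a (11.64, against 11.56 in each of KO 1, KO 2 and KO 4), KO 2 for Actg2 (9.51) and KO 4 for Hba-a1 (13.19). Within WT, the low array WT 11 stood apart for Mrap (5.60) and Dnajc7 (10.33). WT 11 was the only low array of WT and both genes were without overlap, so it had to be the lowest. WT 12 stood apart for Mybphl (5.36), Piwil1 (9.98) and Thy1 (7.48), WT 10 for Fcer1g (8.52) and Adipoq (5.48), WT 8 for Mrc1 (9.58) and WT 9 for Junb (9.42).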

How the results depend on the processing

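The count of separated genes differing by at least 0.5 was 6 lower and 3 higher. The higher count was 1 without background correction, 1 with the authors' processed values and 1 with an offset of 50. A strict filter on dim probes left 1 lower gene (Cyp17a1) and 1 higher (Foxq1), since the others were dim. A difference of at least 1 left 0 higher genes, and no minimum gave 13 lower and 15 higher. Leaving out single arrays gave 6 to 9 lower and 3 to 11 higher genes, with 11 higher without KO 1, and all 9 separated genes remained in each. Gchfr and Mybphl were lost without background correction and with the authors' values, and Cma2 besides with an offset of 50. Gchfr was also lost with the mean of its probes, and Mybphl (0.32) without WT 12, HET 6 and HET 7. Differences ranged over the settings between -2.21 and -1.96 for Cyp17a1, -1.67 and -1.09 for Mrap, -1.28 and -0.63 for Star, -1.93 and -1.22 for Aqp2, and 0.57 and 0.76 for Foxq1.

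Median scaling moved the median of the cholesterol list to 0.0935 and of the stroma list to 0.1394. Without a filter the median of steroid synthesis was -0.0256 and the median of adult Leydig cell markers was -0.0307, and with the strict filter steroid synthesis had 0.084, over other sets of genes. In limma, genes passing in HET against WT ranged between 0 and 173 when single arrays were left out, 173 without HET 5, and 2 passed in KO against WT without WT 12, HET 6 and HET 7. Without HET 5, the HET group was HET 6 and HET 7 only. The cause of these changes was not tested unless stated. No paired analysis was possible because the genotypes share no replicate numbers. Correlations were not run without WT 12, HET 6 and HET 7, which leaves 5 arrays. Star, Tpsab1 and Cma2 were near background on the low arrays, so only bounds on their differences can be given, and these hold for the offset of 16. Aqp2 was not above background on 2 of 4 low arrays.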

Other observations

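Some genes differed strongly while the sides overlapped, all chosen after their values were seen. Alas1, the first enzyme of heme synthesis, read 10.62 to 10.71 on the low arrays and 10.65 to 12.10 on the others (difference -0.77), where KO 2 (10.65) was the only other array within the low range. Pde4d, a phosphodiesterase of cyclic AMP, averaged 5.87 ± 0.17 on the low arrays and 6.63 ± 0.60 on the others (SD, n = 4 and n = 8). Serpina3n (-1.84), Washc3 (-1.94), C1galt1 (-1.50) and Gfpt1 (1.44) differed by more than 1 on the log2 scale, but each had low and high arrays on at least 1 side: Washc3 read 10.37 in KO 3 and 6.97 to 7.42 on the remaining low arrays. Of 3006 detected probes without a single gene name, 2 were lower and 3 higher without overlap, and 0 of these differed by at least 0.5. Among the named genes 28 of 11076 (0.253 percent) were without overlap.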
